A study of Mus musculus with 15 samples.

Results

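The 10 genes described here encode serotonin receptors: Htr1a, Htr1b, Htr1d, Htr1f, Htr2a, Htr2c, Htr3a, Htr4, Htr6 and Htr7. They were taken by name from the 32285 genes counted in single-nuclei RNA sequencing (snRNA-seq) of dorsal hippocampal formation (dHF) micropunches. The rule used no measured value, but earlier results of these data were known when the genes were listed. All 10 were detected in all 15 female mice, at 558 (Htr3a) to 192203 (Htr4) unique molecular identifiers (UMIs, that is counted RNA molecules) over all nuclei.

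The mice fell into 3 groups. There were 6 nulliparous (NP) mice, which were virgins of matched age, 4 control RE mice and 5 stress RE mice. Control RE mice had reproductive experience, meaning mating, pregnancy, birth, lactation and contact with their pups. Stress RE mice had the same experience together with a late postpartum stress, in which pups were taken away daily and nesting material was kept short until weaning. All mice were untreated otherwise, tissue was collected after weaning, and each library held the nuclei of both hemispheres of 1 mouse. Mice are named here by the numbers in the labels, and p-values measure the spread between mice.

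Serotonin reaches the hippocampus from raphe neurons of the brainstem, and its effect on a cell depends on which receptors the cell makes. Receptors of the HTR1 family couple to Gi/o proteins, which lower cyclic AMP and open potassium channels. HTR2 receptors couple to Gq and phospholipase C, HTR3 receptors are ion channels, and HTR4, HTR6 and HTR7 couple to Gs and raise cyclic AMP. In the hippocampus HTR1A is known as an inhibitory receptor of pyramidal cells, and HTR4 is known for its presence in dentate granule neurons.

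Per library there were 5789 to 12738 barcodes and 40602582 to 96211264 UMIs, with a median of 3993 to 8754 UMIs per nucleus. After filtering, 123901 of 134019 barcodes were kept, and pairs of libraries shared 6 to 47 barcodes. Nuclei were clustered without any serotonin receptor gene and named from marker genes, which gave 27 classes. Each name stands for nuclei that resemble that cell type in its markers, and 7665 nuclei stayed unnamed. The punches also held nuclei that by their markers resemble cells from outside the dHF. Among them were striatal-type, thalamic, habenular and choroid plexus nuclei, and their number differed strongly between mice. Striatal-type nuclei with Drd1 ranged from 0 to 428 and habenular nuclei from 0 to 355 a mouse. Levels are given in CPM, that is the UMIs of a gene per 1000000 UMIs of the class in that mouse. A mouse entered a class if it had 10 nuclei of it or more.

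The genes differed in the named class where they were highest. Htr1a was highest in CA1 pyramidal nuclei, Htr1f in the subiculum, Htr2a in mossy cells, Htr2c in the choroid plexus, Htr3a in Vip or Cck interneurons, Htr4 in dentate granule nuclei and Htr7 in thalamic excitatory nuclei. Htr1b, Htr1d and Htr6 were highest in striatal-type nuclei. Below, neighbouring classes are said to differ beyond their spread where the mean difference within a mouse was larger than the SD of that difference.

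**Figure D1:**
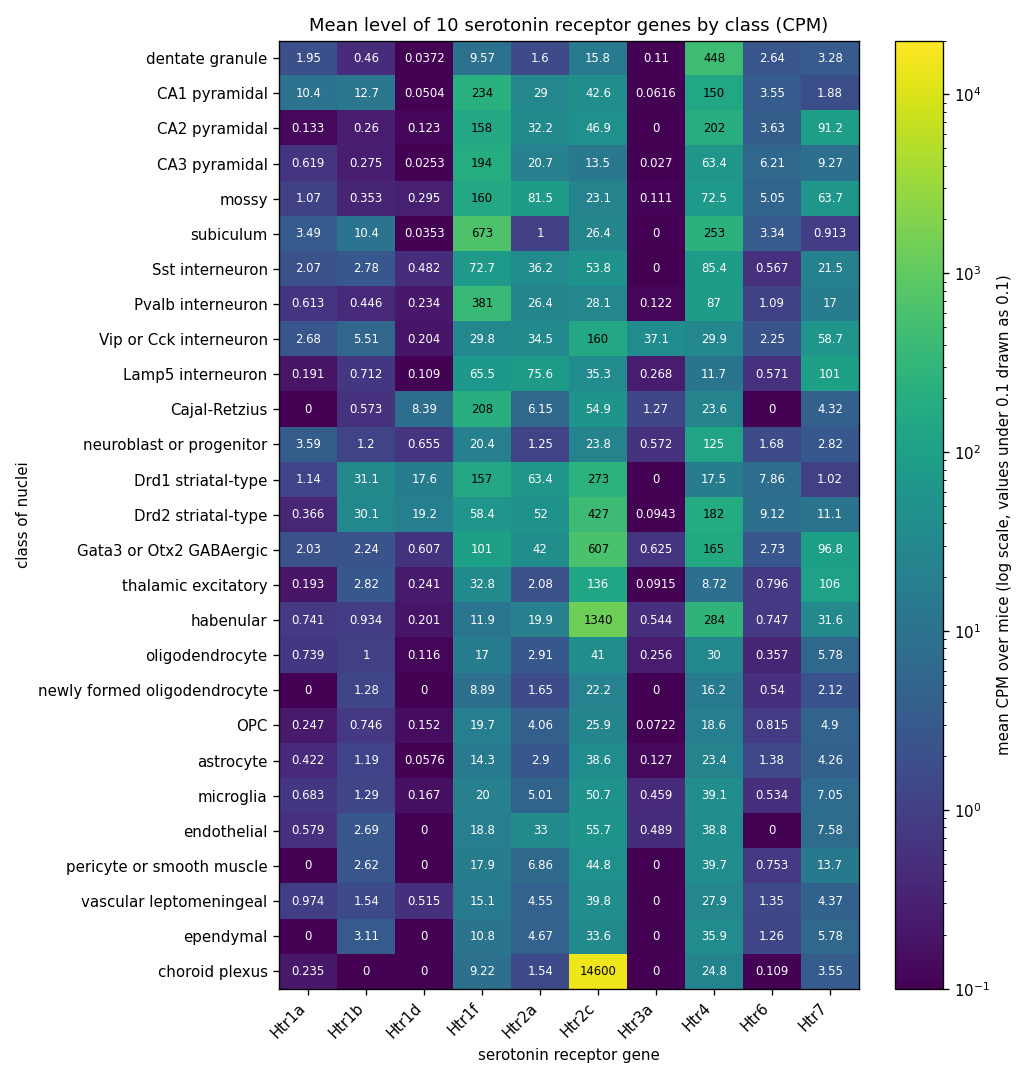
Mean level over mice of each serotonin receptor gene (columns) in each of 27 classes of nuclei (rows), in CPM, with the colour on a log scale and the value printed in each cell. Htr2c reached 14600 CPM in choroid plexus nuclei, Htr4 448 CPM in dentate granule nuclei and Htr3a 37.1 CPM in Vip or Cck interneurons.

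Htr1a encodes the HTR1A receptor and has a single exon of 4.48 kb (GRCm38, chromosome 13, 105443639 to 105448122, plus strand). Its level in CA1 pyramidal nuclei was 10.4 CPM ± 2.9 (SD, n = 15), from 4.33 to 15.5 CPM with a median of 10.5 CPM. It was above the next class, neuroblasts or progenitors at 3.59 CPM ± 4.4, in 13 of 15 mice and beyond the spread. Neuroblasts, the subiculum (3.49 CPM ± 2.55, n = 13) and Vip or Cck interneurons (2.68 CPM ± 1.77) did not differ from each other beyond their spread. CA2 and CA3 pyramidal nuclei had 0.133 and 0.619 CPM, so that among the pyramidal classes the gene was mainly in CA1. CA1 nuclei were 4.65% of all nuclei and gave 44.1% of the Htr1a UMIs.

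Htr1b (chromosome 9, 81628291 to 81633828, minus strand) encodes a receptor known to sit on axon terminals. It was highest in striatal-type nuclei, at 31.1 CPM ± 13.2 (SD, n = 8) in those with Drd1 and 30.1 CPM ± 6.64 (n = 8) in those with Drd2, which did not differ beyond their spread. Within the dHF it was in CA1 pyramidal nuclei (12.7 CPM ± 2.7, n = 15) and the subiculum (10.4 CPM ± 4.94, n = 13). CA2, CA3 and dentate granule nuclei stayed at 0.26, 0.275 and 0.46 CPM. The antisense gene D430036J16Rik overlaps Htr1b, and the strand setting of the counting is not given in the sources used here, so reads of the pair may not be fully separated.

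Htr1d, which encodes a close relative of HTR1B, had few UMIs, 568 over all nuclei (chromosome 4, 136423524 to 136444398, plus strand). Striatal-type nuclei had 19.2 CPM ± 10.8 (SD, n = 8) with Drd2 and 17.6 CPM ± 5.01 (n = 8) with Drd1, which did not differ beyond their spread. Next came Cajal-Retzius cells, at 8.39 CPM ± 11.4 (n = 15), where 17 UMIs came from 7 of 15 mice. The 5761 CA1 pyramidal nuclei held 4 Htr1d UMIs and the 35334 dentate granule nuclei 12, so its level in the principal neurons of the dHF could not be measured well at this depth.

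Htr1f spans 181 kb (chromosome 16, 64924729 to 65105854, minus strand). It reached 673 CPM ± 94 (SD, n = 13) in the subiculum, from 529 to 885 CPM with a median of 665 CPM, above Pvalb interneurons in 13 of 13 mice. Pvalb interneurons, which are fast-spiking GABAergic neurons, had 381 CPM ± 104 (n = 15), and CA1 pyramidal nuclei had 234 CPM ± 29.7 and CA3 pyramidal nuclei 194 CPM ± 12.6. Dentate granule nuclei stood apart from the other principal neurons with 9.57 CPM ± 3.65. After each nucleus was thinned to 1000 UMIs, 43.3% of subiculum nuclei (95% Wilson interval 39.1 to 47.5%) and 28% of Pvalb interneurons (23.9 to 32.5%) held an Htr1f UMI. Oligodendrocytes, taken here and below as a low class for comparison, had 1.76%. Whether they make these genes was not tested. Without thinning the shares were 90.3%, 81.9% and 4.27%, at median depths of 18149, 15404 and 2491 UMIs. These intervals cover counting error only, and nuclei under 1000 UMIs were left out, namely 1084 from NP mice, 684 from control RE mice and 938 from stress RE mice.

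Htr2a (chromosome 14, 74640840 to 74709494, plus strand) encodes the receptor through which classical psychedelics act. It was highest in mossy cells of the dentate hilus, at 81.5 CPM ± 19.3 (SD, n = 13), from 48.2 to 112 CPM with a median of 73.7 CPM. Lamp5 interneurons had 75.6 CPM ± 17.3 (n = 15), which did not differ from mossy cells beyond the spread. Drd1 and Drd2 striatal-type nuclei followed with 63.4 CPM ± 21.1 and 52 CPM ± 34.5 (n = 8 each), and Gata3 or Otx2 GABAergic nuclei with 42 CPM ± 9.92. Sst and Vip or Cck interneurons had 36.2 CPM ± 16.6 and 34.5 CPM ± 13.4. Endothelial nuclei had 33 CPM ± 21.3, while dentate granule nuclei had 1.6 CPM ± 0.588. After thinning, 8.36% of mossy cells and 8.21% of Lamp5 interneurons held a UMI, against 0.297% of oligodendrocytes (68.4%, 42.7% and 0.755% before thinning).

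Htr2c (chromosome X, 146962513 to 147197277, plus strand) encodes a receptor that is well known from the choroid plexus, the epithelium that makes cerebrospinal fluid. The gene also hosts a small nucleolar RNA and several microRNAs on the same strand. Choroid plexus nuclei had 14600 CPM ± 2970 (SD, n = 13), from 7290 to 18000 CPM with a median of 15300 CPM. They were 0.642% of all nuclei and gave 44.4% of the Htr2c UMIs. Among neurons, habenular nuclei had 1340 CPM ± 1100 (n = 12), from 132 to 3410 CPM, and Gata3 or Otx2 GABAergic nuclei had 607 CPM ± 213 (n = 15). These did not differ beyond their spread. Drd2 and Drd1 striatal-type nuclei had 427 CPM ± 61 and 273 CPM ± 28.5, with the former above the latter in 8 of 8 mice.

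Within the dHF, Htr2c was highest in Vip or Cck interneurons, at 160 CPM ± 58.3 (SD, n = 15). CA1 and CA2 pyramidal nuclei had 42.6 CPM ± 12 and 46.9 CPM ± 19.6. Glial classes were at like levels, with 41 CPM in oligodendrocytes, 38.6 CPM in astrocytes and 50.7 CPM in microglia. After thinning, 99% of choroid plexus nuclei, 10.6% of Vip or Cck interneurons and 3.7% of CA1 nuclei held an Htr2c UMI, against 4.12% of oligodendrocytes (99.5%, 41.5%, 29.7% and 10.1% before thinning). The share of CA1 nuclei was thus no higher than that of oligodendrocytes. Ttr, the main transcript of the choroid plexus, was likewise found in every class, at 16.5 CPM in CA1 nuclei, 27.8 CPM in dentate granule nuclei and 75.8 CPM in oligodendrocytes (13 mice), so that free RNA need not be equal between classes. When the amount that Ttr implies for choroid plexus RNA was taken off in each mouse, Htr2c stayed at 223 CPM or more in habenular, Gata3 or Otx2 and striatal-type nuclei and at 112 CPM ± 30.7 in thalamic excitatory nuclei. It was 30.4 CPM ± 17.5 in CA2 and 18.2 CPM ± 20.3 in CA1 pyramidal nuclei, 35.5 CPM ± 387 in Vip or Cck interneurons and below 0 in glia. In oligodendrocytes and microglia it was −69.8 CPM ± 84.3 and −68 CPM ± 80.5, so the subtraction took off too much there.

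Htr3a (chromosome 9, 48899213 to 48911099, minus strand) encodes the channel subunit that HTR3 receptors require. Its UMIs were concentrated in Vip or Cck interneurons, at 37.1 CPM ± 10.5 (SD, n = 15), from 19.5 to 54.1 CPM with a median of 37 CPM. This was above the next class, Cajal-Retzius cells at 1.27 CPM ± 3.49, in 15 of 15 mice. These interneurons were 0.7% of nuclei and gave 71.3% of the Htr3a UMIs, 398 of 558. After thinning, 4.15% of them held a UMI (95% Wilson interval 3.01 to 5.69%), against 0.0273% of oligodendrocytes (28% and 0.0704% before thinning). The antisense gene Gm32335 overlaps Htr3a.

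Htr4 (chromosome 18, 62324204 to 62496577, plus strand) was the receptor with the least spread between mice in its highest class. Dentate granule nuclei had 448 CPM ± 40 (SD, n = 15), from 360 to 504 CPM with a median of 452 CPM. They gave 74.2% of all Htr4 UMIs, and their level exceeded that of habenular nuclei (284 CPM ± 83.7) in 12 of 12 mice. The subiculum had 253 CPM ± 60.2 (n = 13), CA2 pyramidal nuclei 202 CPM ± 37.1 and CA1 pyramidal nuclei 150 CPM ± 26.5, and Lamp5 interneurons 11.7 CPM. After thinning, 33.2% of dentate granule nuclei and 12.8% of CA1 nuclei held a UMI, against 3.09% of oligodendrocytes (82.4%, 64.6% and 7.26% before thinning). The coefficient of variation between mice was 8.93% in dentate granule nuclei, and in the highest class of the other receptors it ran from 12.9% (Htr7) to 56.4% (Htr1d). Depth differed as well, with 9290 Htr4 UMIs in a median mouse, against 10 for Htr1d and 7 for Htr6. Counting error was not separated from differences between mice.

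Htr6 (chromosome 4, 139061108 to 139075570, minus strand) is a receptor known from the striatum and hippocampus. Drd2 and Drd1 striatal-type nuclei had 9.12 CPM ± 4.86 and 7.86 CPM ± 4.69 (SD, n = 8). CA3 pyramidal nuclei came next with 6.21 CPM ± 1.34 (n = 15), and these 3 classes did not differ beyond their spread. Dentate granule nuclei, at 2.64 CPM ± 0.447, gave 34% of its UMIs because of their number.

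Htr7 (chromosome 19, 35958734 to 36057507, minus strand) was at like levels in several classes. Thalamic excitatory nuclei had 106 CPM ± 13.7 (SD, n = 15), Lamp5 interneurons 101 CPM ± 16.7, Gata3 or Otx2 GABAergic nuclei 96.8 CPM ± 14 and CA2 pyramidal nuclei 91.2 CPM ± 14.4. No neighbours among these 4 differed beyond their spread, and mossy cells (63.7 CPM ± 15, n = 13) lay below them. CA1 and CA3 pyramidal nuclei were at 1.88 and 9.27 CPM, so that CA2 stood apart from the neighbouring CA fields. After thinning, 10% of Lamp5 interneurons and 9.84% of thalamic nuclei held a UMI, against 0.562% of oligodendrocytes (47.5%, 60.4% and 1.52% before thinning).

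Because nuclear RNA is counted over introns, levels of different genes were compared only per kb, here of gene span. On that scale, CA1 pyramidal nuclei had 2.33 CPM per kb of Htr1a, 2.29 of Htr1b, 1.29 of Htr1f and 0.87 of Htr4. Dentate granule nuclei were led by Htr4, at 2.61 CPM per kb. CA2 nuclei had 1.18 CPM per kb of Htr4 and 0.923 of Htr7, and Lamp5 interneurons 1.1 of Htr2a and 1.02 of Htr7. Vip or Cck interneurons were led by Htr3a, at 3.12 CPM per kb, Pvalb interneurons and the subiculum by Htr1f, at 2.11 and 3.72, and mossy cells by Htr2a, at 1.19. Drd1 striatal-type nuclei were led by Htr1b at 5.62 CPM per kb. Per kb of exon several leaders changed, since Htr1a has no intron and Htr1f has long ones. On that scale Htr1f led in CA1 (90.7 CPM per kb, against 2.33 for Htr1a), CA2 (61.4), mossy cells (62.1, against 14.5 for Htr2a) and Drd1 striatal-type nuclei (61, against 6.59 for Htr1b), and Htr7 led in Lamp5 interneurons (29.8, against 13.5 for Htr2a). Htr4 in dentate granule nuclei, Htr3a in Vip or Cck interneurons and Htr1f in Pvalb interneurons and the subiculum led on both scales. These are rankings of mean levels with no test. The libraries were made with 3′ chemistry, and whether their counts grow with gene span or exon length was not tested. Where the 2 scales disagree, no leader can be named.

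Differences between broad classes of the dHF were then tested within mice. In each mouse the CPM of 2 classes were compared, with a two-sided exact permutation test that flips the sign of each mouse's difference, and Benjamini-Hochberg adjustment over 30 tests. The smallest p that 15 mice allow is 6.10e-05, which is 9.64e-05 after adjustment. Of 30 tests, 26 had an adjusted p under 0.05, and 19 of these had that smallest p.

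Neurons of the dHF were compared with glia (oligodendrocytes, their precursors and newly formed ones, astrocytes and microglia). Of the 49903 neuronal nuclei, 35334 were dentate granule nuclei, so the pooled level leans on them. Of the 10 receptors, 8 were higher in neurons. Htr4 had 302 CPM ± 50.1 in neurons and 27.5 CPM ± 11.8 in glia (SD, n = 15), an 11-fold difference seen in 15 of 15 mice (exact permutation test, adjusted p = 9.64e-05). Htr1f, Htr6 and Htr1a were 5.78-fold, 5.07-fold and 4.81-fold higher, and Htr7, the least different, 1.99-fold, each in 15 of 15 mice. Htr2c was the exception, with 24.6 CPM ± 7.72 in neurons and 38.9 CPM ± 19.9 in glia, and was higher in glia in 11 of 15 mice (exact permutation test, adjusted p = 0.00175). The Ttr subtraction given above took off more Htr2c than glia held, 108 CPM from 38.5 CPM in oligodendrocytes and 115 CPM from 46.7 CPM in microglia (13 mice). The source of glial Htr2c was not tested. Htr1d had 0.0609 CPM in neurons and 0.106 CPM in glia (adjusted p = 0.319, exact permutation test).

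Interneurons (Sst, Pvalb, Vip or Cck and Lamp5) were compared with excitatory neurons of the dHF. UMIs were summed over the nuclei of each side. Most excitatory nuclei were dentate granule nuclei (35334, against 5761 in CA1 and 4657 in CA3), so the pooled level leans on them. The channel gene Htr3a had 11.7 CPM ± 3.75 in interneurons and 0.0817 CPM ± 0.0545 in excitatory neurons (SD, n = 15), a 143-fold difference. The excitatory level was below the 0.219 CPM of glia, so the size of this fold rests on a level whose source was not tested. Htr7 was 7.28-fold higher in interneurons (54.7 and 7.51 CPM), Htr2a 4.07-fold (45.1 and 11.1 CPM) and Htr2c 3.76-fold (78.4 and 20.8 CPM). Each of these 4 was higher in 15 of 15 mice (exact permutation test, adjusted p = 9.64e-05). Single excitatory classes still lay above the pooled interneurons. These were mossy cells for Htr2a (81.5 CPM), and CA2 nuclei (91.2 CPM) and mossy cells (63.7 CPM) for Htr7. For Htr2c the excitatory level was below that of oligodendrocytes (41 CPM), and the Vip or Cck class, the highest of the interneurons, was 35.5 CPM ± 387 after the Ttr subtraction. Htr1f (113 and 95.1 CPM, adjusted p = 0.033) and Htr1d (0.256 and 0.0477 CPM, adjusted p = 0.0394) passed the same exact permutation test with 11 and 6 of 15 mice higher. Of the excitatory classes, only dentate granule nuclei (9.57 CPM) lay below 113 CPM of Htr1f. The others ran from 158 CPM in CA2 to 673 CPM in the subiculum, so the Htr1f result holds for the pool only. Htr1f missed the threshold without any 1 of NP mouse 35, control RE mice 66, 72 and 88 and stress RE mice 43 and 75 (adjusted p up to 0.0628, exact permutation test). Htr1d missed it without any 1 of NP mouse 37, control RE mice 72 and 88 and stress RE mice 43, 70 and 75, and within batches 2 and 3 (adjusted p up to 0.0789, exact permutation test).

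The reverse held for 3 receptors. Htr4 was 6.8-fold lower in interneurons (47.1 CPM ± 8.76) than in excitatory neurons (321 CPM ± 50.4), and Htr6 was 2.87-fold lower (1.21 and 3.48 CPM), in 15 of 15 mice each (n = 15, exact permutation test, adjusted p = 9.64e-05). Htr1a was 2.02-fold lower, at 1.48 and 3 CPM (adjusted p = 0.00923, exact permutation test). However, CA2 nuclei (0.133 CPM), CA3 nuclei (0.619 CPM) and mossy cells (1.07 CPM) lay below the pooled interneurons. Htr1b had 2.71 and 2.53 CPM, and the exact permutation test gave an adjusted p of 0.723. Of the 3 Gs-coupled genes, Htr4 and Htr6 were thus lower in the pooled interneurons and Htr7 was higher. By mean level per class this held for Htr6 throughout, but not for Htr4 and Htr7. Htr4 had 63.4 CPM in CA3 nuclei, below Pvalb (87 CPM) and Sst interneurons (85.4 CPM). Htr7 had 91.2 CPM in CA2 nuclei and 63.7 CPM in mossy cells, above Pvalb (17 CPM) and Sst interneurons (21.5 CPM).

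Dentate granule and CA1 pyramidal nuclei, the first and last stations of the trisynaptic circuit, were compared last. Htr4 was 2.99-fold higher in dentate granule nuclei, 448 CPM ± 40 and 150 CPM ± 26.5 (SD, n = 15), and Htr7 was 1.74-fold higher, 3.28 and 1.88 CPM (adjusted p = 9.64e-05 and 0.000262, exact permutation test). Both Htr7 levels lay below the 5.78 CPM of oligodendrocytes, and the thinned shares (0.391% and 0.243%, against 0.562%) did too, and the part of free RNA in the Htr7 difference was not tested. In CA1, 6 receptors were higher. Htr1b was 27.5-fold, Htr1f 24.4-fold, Htr2a 18.1-fold, Htr1a 5.34-fold and Htr2c 2.7-fold higher in CA1, each in 15 of 15 mice (exact permutation test, adjusted p = 9.64e-05). Dentate granule levels of Htr1b, Htr1f and Htr2a (0.46, 9.57 and 1.6 CPM) lay below those of oligodendrocytes (1, 17 and 2.91 CPM). The size of these folds thus rests on low levels whose source was not tested. For Htr2c the levels were 42.6 CPM in CA1 and 15.8 CPM in dentate granule nuclei, beside 41 CPM in oligodendrocytes, while Ttr was lower in CA1 (16.5 CPM) than in dentate granule nuclei (27.8 CPM). The part of free RNA in this difference was not tested. Htr6 was 1.35-fold higher in CA1 (adjusted p = 0.00326, exact permutation test). Htr1d and Htr3a, with under 0.12 CPM in either class, gave adjusted p of 0.861 and 0.106 in the same exact permutation test, and Htr3a passed without NP mouse 31 (adjusted p = 0.0319).

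**Figure D2:**
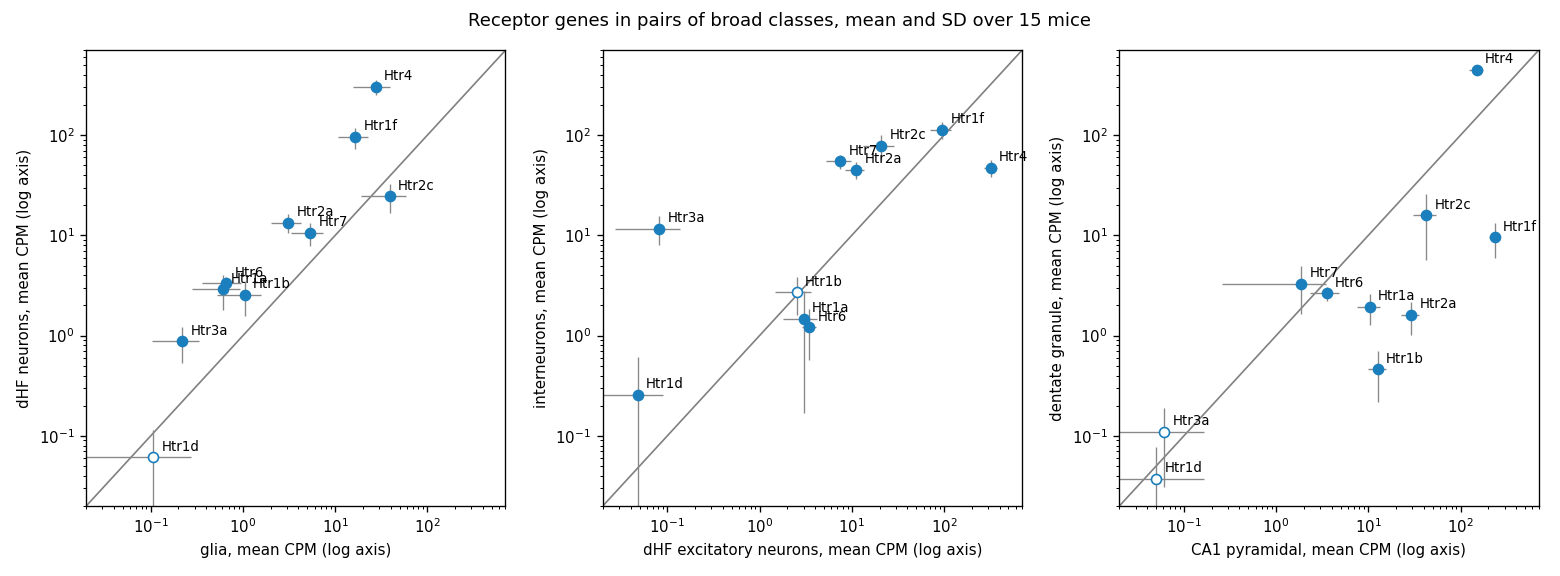
Mean CPM of each receptor gene in one broad class against another on log axes, for neurons of the dHF and glia, interneurons and excitatory neurons, and dentate granule and CA1 pyramidal nuclei, with bars for the SD over 15 mice and a line of equal level. Filled points have an adjusted p under 0.05 (26 of 30) and open points do not. Htr3a lies 143-fold above the line in the middle panel, and Htr1b and Htr1f lie 27.5-fold and 24.4-fold below it in the right panel. In each of these the lower level was below that of oligodendrocytes.

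The genes whose mean levels over the 27 classes ran most like those of a receptor were found among 17846 genes, as a description with no test, since the classes share libraries and depth. For Htr3a this was Krt73 (Pearson r = 0.99), a keratin gene, and then its antisense partner Gm32335 (r = 0.98). For Htr1b it was its antisense partner D430036J16Rik (r = 0.98) and then Gm27226 (r = 0.95). Chrna5, a nicotinic receptor subunit, was nearest to Htr1a (r = 0.86), Ryr2, a calcium release channel, to Htr4 (r = 0.82), and Marveld3, a tight junction gene, to Htr2c (r = 0.87). For Htr1d, Htr1f, Htr2a, Htr6 and Htr7 the nearest genes were Serpina9 (r = 0.93), Pcnx2 (r = 0.82), Gm28153 (r = 0.87), Gm42456 (r = 0.92) and Gm21691 (r = 0.80). Among the receptors themselves, Htr1b and Htr1d were most alike (r = 0.68) and Htr1b and Htr7 least (r = −0.18).

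The study then asked whether reproductive experience and postpartum stress alter the dHF, and each receptor was tested for a difference between groups within every class with at least 3 mice a group. UMIs were summed per mouse and class and tested with the quasi-likelihood test of edgeR, with Benjamini-Hochberg adjustment over all genes of the class. The comparisons share groups and the classes share mice, so the tests are not independent. No receptor was called at an adjusted p under 0.05 in any class in any comparison, by edgeR or by DESeq2. Over all genes, DESeq2 called 1 of 204700 gene tests for control RE minus NP, 33 of 194825 for stress RE minus control RE and 3 of 216085 for stress RE minus NP.

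For control RE minus NP, 89 of 230 combinations of receptor and class had enough counts to be tested. None was called, against 0% of all genes, and the smallest adjusted p was 0.886 (edgeR). At an unadjusted p under 0.05 there were 9 (10.1%), against 3.25% of all gene tests. All 9 were lower in control RE, where lower results made up 1.98% of all gene tests, and 8 of them were Htr2c. The median log2 change was −0.04 over the receptors and −0.00 over all genes.

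For stress RE minus control RE, 101 of 250 combinations were tested. None was called, against 0% of all genes, and the smallest adjusted p was 0.245 (edgeR). There were 7 (6.93%) at an unadjusted p under 0.05, against 3.03% of all gene tests. In the striatal-type classes, which hold 5 of the 7, the share over all genes was itself higher, at 11.3% with Drd1 and 8.7% with Drd2. Of the 7, 5 (4.95%) were lower in stress RE, against 1.38% of all gene tests, and none was Htr2c. The median log2 change was −0.07, against −0.00 over all genes.

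For stress RE minus NP, 94 of 250 combinations were tested. None was called, against 0% of all genes, and the smallest adjusted p was 0.337 (edgeR). At an unadjusted p under 0.05 there were 11 (11.7%), against 3.99% of all gene tests, and 10 of them (10.6%) were lower in stress RE, against 2.28%. Htr2c gave 7 of the 11. The median log2 change was −0.09, against −0.00 over all genes. With DESeq2 the receptors had 9, 6 and 13 results at an unadjusted p under 0.05 in the 3 comparisons, in the order above (10.1%, 5.94% and 13.8%), against 2.38%, 2.07% and 3.05% of all gene tests by DESeq2.

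**Figure D3:**
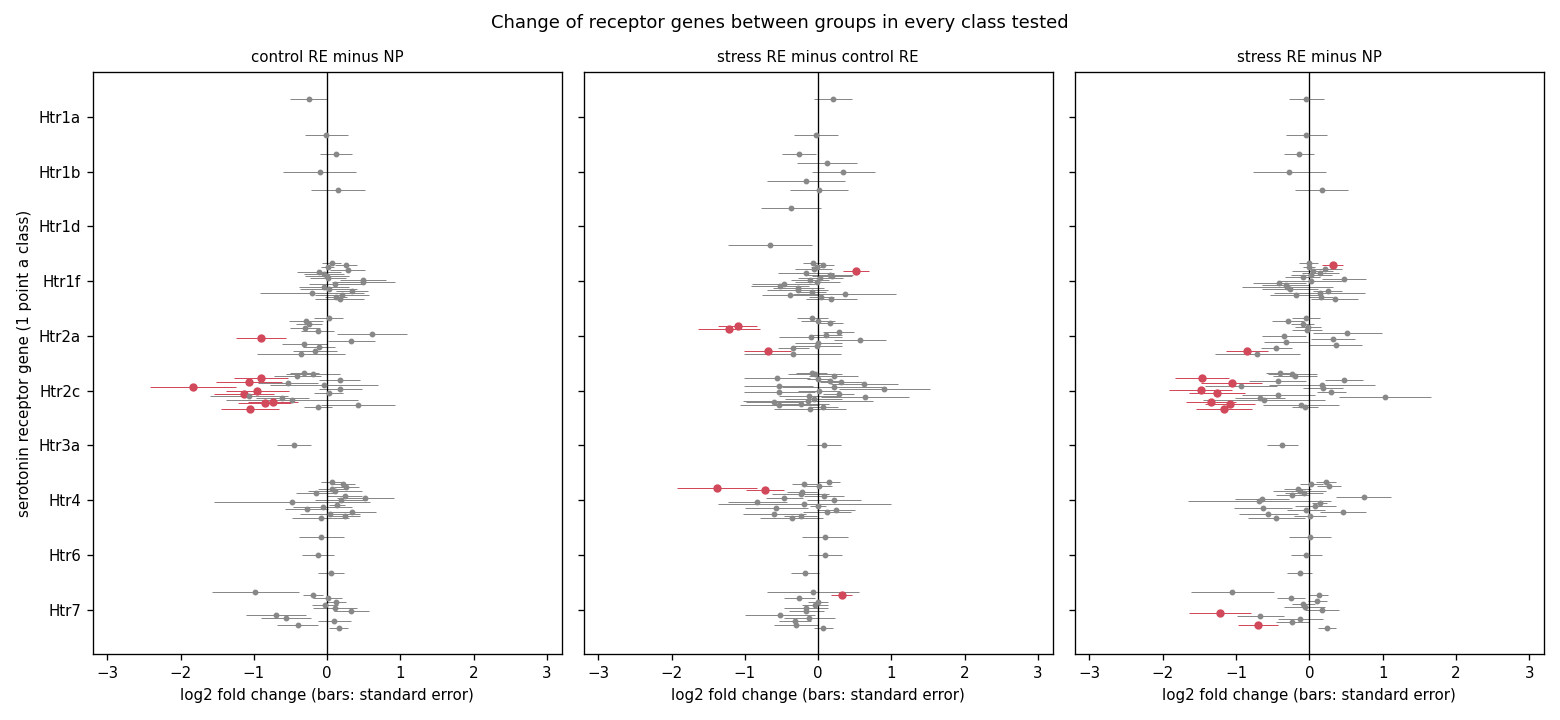
Log2 fold change of each receptor gene in every class where it could be tested, 1 point a class, with bars for the standard error, in 3 panels for the 3 comparisons. Red points have an unadjusted p under 0.05 (9, 7 and 11 points) and no point has an adjusted p under 0.05. Most red points in both panels against NP belong to Htr2c and lie left of 0.

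In the class where each receptor was highest, the groups overlapped. Htr4 in dentate granule nuclei had 430 CPM ± 51.2 (SD) in 6 NP mice, with a lowest value of 360, a median of 442 and a highest of 502 CPM. Control RE mice had 421, 442, 468 and 504 CPM and stress RE mice 433, 454, 457, 464 and 498 CPM, of which only the highest control RE mouse lay outside the NP range. Stress RE minus control RE was 0.00 on the log2 scale (SE 0.11) and control RE minus NP 0.14 (SE 0.11, adjusted p = 0.95 by edgeR).

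Htr1a in CA1 pyramidal nuclei had 8.81 to 12.7 CPM (median 11.4) in NP mice. The 4 control RE mice had 5.72, 8.02, 10.3 and 11.2 CPM and the 5 stress RE mice 4.33, 10, 10.3, 14.3 and 15.5 CPM. The stress RE mice held both the lowest and the highest value of all, and the difference stress RE minus control RE was 0.20 on the log2 scale (SE 0.26, adjusted p = 1 by edgeR).

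Htr3a in Vip or Cck interneurons had 26.1 to 54.1 CPM (median 48.7) in NP mice, and 4 of the 6 were above every RE mouse. Control RE mice had 26.1, 27.4, 32.9 and 39.2 CPM and stress RE mice 19.5, 29.2, 37, 38 and 41.3 CPM. The log2 change was −0.45 (SE 0.23, adjusted p = 0.977) for control RE minus NP and −0.37 (SE 0.21, adjusted p = 0.931) for stress RE minus NP, by edgeR. The highest count behind these values was 39 UMIs in a mouse.

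Htr2a in mossy cells had 74.4, 100, 106 and 109 CPM in NP mice. The 4 control RE mice had 71.6, 72, 72.1 and 112 CPM and the 5 stress RE mice 48.2, 70, 70.1, 73.7 and 79.2 CPM. The latter lay at the low end, and the difference stress RE minus NP was −0.45 on the log2 scale (SE 0.21, adjusted p = 0.996 by edgeR). Htr1f in the subiculum differed by 0.16 or less on the log2 scale in the 3 comparisons, and in CA3 pyramidal nuclei by 0.01 or less, with an SE of 0.08 to 0.09. Htr7 in thalamic excitatory nuclei had 86.1 to 112 CPM (median 97.6) in NP mice, 101, 103, 106 and 118 CPM in control RE mice and 89.3, 108, 115, 117 and 138 CPM in the stress RE group (0.24 on the log2 scale against NP, SE 0.12, adjusted p = 1 by edgeR).

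**Figure D4:**
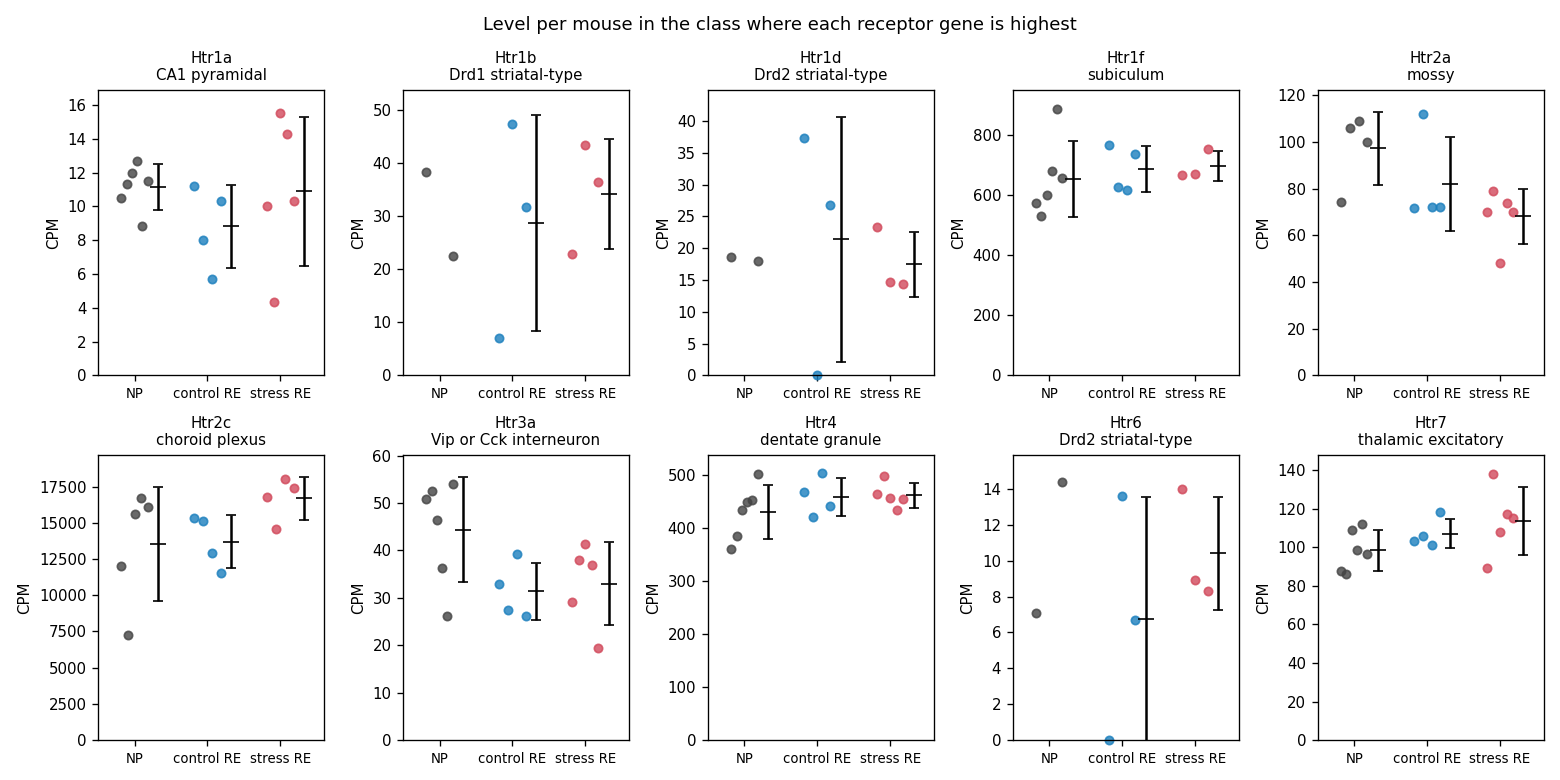
CPM of each receptor gene in the class where it was highest, 1 point a mouse, for NP, control RE and stress RE mice, with the mean and SD beside the points (for groups of 2 mice only the points). Axes start at 0. Htr4 in dentate granule nuclei runs from 360 to 504 CPM over all mice, and the groups overlap.

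The most frequent difference at an unadjusted p was a lower level of Htr2c in RE mice than in NP mice, in classes where the gene was low. In dentate granule nuclei NP mice had 9.6 to 40.2 CPM (mean 24.4 ± 10.5). Control RE mice had 3.49, 9.34, 13.4 and 16 CPM and stress RE mice 6.14, 7.3, 9.36, 11.6 and 13.9 CPM. The groups overlapped through NP mouse 37, the lowest of its group. The log2 change was −1.13 (SE 0.41, adjusted p = 0.95) for control RE and −1.26 (SE 0.38, adjusted p = 1) for stress RE against NP, by edgeR.

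In Cajal-Retzius cells, an early-born cell type that lingers along the hippocampal fissure, NP mice had 35.5 to 117 CPM of Htr2c (mean 85.3 ± 28.1). Control RE mice had 22.6, 30.4, 37.9 and 76.1 CPM and stress RE mice 23.9, 24.3, 25.8, 32.5 and 37.8 CPM. Stress RE minus NP was −1.46 on the log2 scale (SE 0.37, adjusted p = 0.337 by edgeR), and without NP mouse 37 its adjusted p was 0.0474. Without that mouse 8 of 214271 gene tests were called in this comparison. In neuroblasts or progenitors, NP mice had 23.5 to 55.5 CPM and stress RE mice 7.76, 11.9, 12.2, 12.4 and 21 CPM, without overlap (−1.34, SE 0.34, adjusted p = 1 by edgeR). How many of all genes were without overlap there was not counted. The Htr2c values rest on few UMIs, 84 in NP and 22 in stress RE mice for Cajal-Retzius cells and 68 and 26 for neuroblasts.

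In glial and vascular classes the fitted values were also below 0. Stress RE minus NP was −1.48 (SE 0.43) in astrocytes, −1.08 (SE 0.34) in oligodendrocytes, −1.06 (SE 0.42) in their precursors and −1.16 (SE 0.38) in vascular leptomeningeal nuclei for Htr2c, with adjusted p of 0.992 or more (edgeR). It was −0.67 (SE 0.34) in microglia and −0.42 (SE 0.50) in endothelial nuclei, which did not reach an unadjusted 0.05. Control RE minus NP was −1.83 (SE 0.59) in Sst interneurons (−0.97 without NP mouse 27), −1.06 (SE 0.45) in Lamp5 interneurons (−0.59 with 2 times the share of doublets removed) and −0.95 (SE 0.43) in astrocytes (−0.53 with batch as a term), with adjusted p of 0.907 or more (edgeR). With batch as a term, the unadjusted p for Htr2c rose to 0.227 in astrocytes, 0.0781 in Cajal-Retzius cells and 0.0546 in dentate granule nuclei (edgeR). Within batches the control RE difference was not uniform. In dentate granule nuclei Htr2c had 6.41 CPM in control RE and 21.4 CPM in NP mice in batch 2 but 14.7 and 16.6 CPM in batch 3, 2 mice each, and in astrocytes 19.7 and 54.5 CPM in batch 2 but 38.5 and 31.5 CPM in batch 3. Stress RE stayed below NP in dentate granule nuclei in every batch, at 13.9 and 35.3 CPM in batch 1, 10.5 and 21.4 CPM in batch 2 and 6.72 and 16.6 CPM in batch 3. Batch 1 held no control RE mouse.

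**Figure D5:**
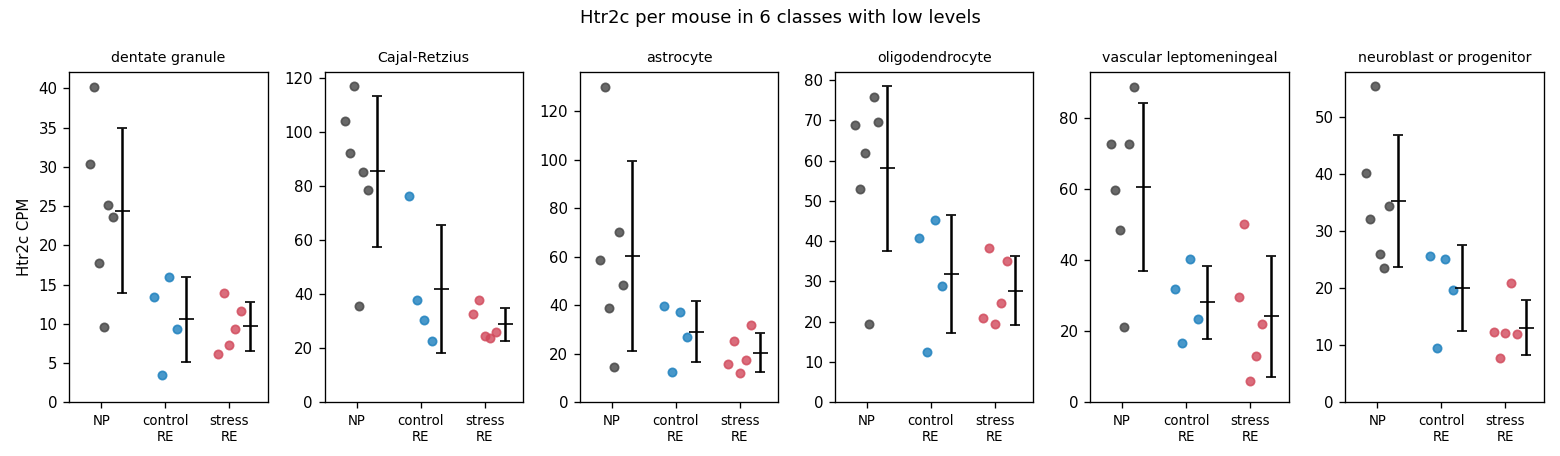
Htr2c CPM per mouse in the 6 classes with an unadjusted p under 0.05 (edgeR) in both comparisons against NP. Points are 6 NP, 4 control RE and 5 stress RE mice, with the mean and SD beside them. Other classes with low levels, such as microglia and endothelial nuclei, are not drawn. Axes start at 0. The NP mice have the highest mean in each panel, which follows from how the classes were chosen. Stress RE and NP mice do not overlap in neuroblasts or progenitors, where UMIs were few. How many of all genes were without overlap there was not counted.

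Over all classes tested, Htr2c was lower in 17 and higher in 4 for control RE minus NP, and lower in 17 and higher in 5 for stress RE minus NP. The classes come from the same mice, so these counts are not independent results. How many of all genes leaned as far to 1 side over the classes was not counted. Where Htr2c was high, the fitted values against NP lay on both sides of 0. In choroid plexus nuclei NP mice had 7290, 12000, 15600, 16100 and 16700 CPM, control RE mice 11500, 12900, 15100 and 15300 CPM and stress RE mice 14600, 16800, 17400 and 18000 CPM. The log2 change was 0.02 (SE 0.20) for control RE and 0.30 (SE 0.20) for stress RE against NP. In Gata3 or Otx2 GABAergic nuclei it was 0.17 (SE 0.28) and 0.47 (SE 0.26), in thalamic excitatory nuclei −0.13 (SE 0.19) and −0.06 (SE 0.18), and in habenular nuclei stress RE minus NP was 1.03 (SE 0.63, adjusted p = 1 by edgeR).

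Markers of cells rich in Htr2c were also measured in the same libraries. Glial Htr2c was 55.3 CPM ± 19.8 (SD, n = 6) for NP, 30.6 CPM ± 13.3 (n = 4) for control RE and 25.8 CPM ± 8.59 (n = 5) for stress RE mice. All 6 habenular markers were found in glia, and their summed level ran from 28.6 to 104 CPM among NP mice, from 25.4 to 38.3 CPM among control RE mice and from 17 to 37.2 CPM among stress RE mice. The means were 61.6, 31.4 and 27.4 CPM. NP mice also had 16 to 355 habenular nuclei each, control RE mice 0 to 27 and stress RE mice 0 to 84. All 7 choroid plexus markers were found in glia too, at a summed 36.3 to 120, 28.2 to 106 and 19.5 to 270 CPM (means 78.5, 63.2 and 102 CPM), which overlapped between groups. Across 15 mice, glial Htr2c and Ttr had Pearson's r = −0.14 (permutation p = 0.669) and Spearman's rho = −0.03 (permutation p = 0.925), both 0.925 after adjustment over these tests, and r = 0.21 without the 2 mice farthest from the median of Ttr. Within batches 2 and 3 r was −0.07 and −0.33, 6 mice each. In dentate granule nuclei, where Htr2c was 24.4 CPM in NP mice and 10.5 and 9.68 CPM in RE mice, the habenular markers overlapped, at a summed 70.7 to 119, 65.6 to 89.8 and 58.8 to 90 CPM in the same order of groups. Their NP mean there, 85.9 CPM, was above that of glia, and Slc17a6 among them was also a thalamic marker. How much of these sums was the cells' own RNA was not tested. In dentate granule nuclei Htr2c and Ttr had r = 0.29 (permutation p = 0.288) and rho = 0.07 (permutation p = 0.803), both 0.925 after adjustment, r = 0.48 without the 2 farthest mice, and −0.22 and −0.26 within batches 2 and 3. The habenular markers were not correlated with Htr2c over mice. The part of free RNA in the Htr2c difference was not tested.

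Among the 14 classes tested, Htr2a had its largest changes between the RE groups in striatal-type nuclei. By their markers these nuclei resemble neurons from outside the dHF. The paper kept a GABAergic cluster enriched in Drd1 and Drd2 among its dHF populations, and whether it holds the same nuclei was not tested. With Drd1, control RE mice had 76.4, 76.4 and 85.8 CPM, stress RE mice 30.4, 44.5 and 47.1 CPM and the 2 NP mice with enough nuclei 59.8 and 86.8 CPM. Control and stress RE mice did not overlap, and the log2 change was −1.10 (SE 0.27, adjusted p = 0.245 by edgeR). How many of all genes were without overlap was not counted. Mice shared the sub-clusters unequally, and stress RE mouse 75 gave 87.1% of 232 nuclei in a Drd1 sub-cluster and 81.3% of 294 in a Drd2 sub-cluster. Whether the changes followed sub-clusters was not tested. With Drd2, the change was −1.22 (SE 0.42, adjusted p = 0.518), with 18.7, 54.2 and 131 CPM in control RE and 30.4, 31.8 and 49.8 CPM in stress RE mice, which overlapped. With each of the 6 mice left out in turn, which left 2 mice in a group, the change with Drd1 lay between −1.20 and −0.86. With Drd2 it lay between −1.57 and −1.01 except without control RE mouse 87, where it was 0.22 (SE 0.64, adjusted p = 0.997 by edgeR), so the value with Drd2 rested on that mouse. The 3 control RE mice had 12, 26 and 50 nuclei with Drd1 and 11, 11 and 36 with Drd2. Within batches, Htr2a with Drd1 was 44.5 against 76.4 CPM in batch 2, 1 mouse each, and 38.8 against 81.1 CPM in batch 3, 2 mice each.

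In the same nuclei Htr4 was −0.72 (SE 0.26, adjusted p = 0.518) with Drd2 and −1.38 (SE 0.54, adjusted p = 0.368) with Drd1, and Htr1f was 0.52 (SE 0.18, adjusted p = 0.303) with Drd1, as log2 changes of stress RE minus control RE by edgeR. For Htr4 with Drd2, control RE mice had 168, 176 and 298 CPM and stress RE mice 120, 159 and 164 CPM. For Htr1f with Drd1, control RE mice had 98.2, 125 and 136 CPM and stress RE mice 168, 177 and 193 CPM. In these 2 cases the RE groups did not overlap, for Htr4 only by the gap from 164 to 168 CPM. Of all genes, 11.3% with Drd1 and 8.7% with Drd2 had an unadjusted p under 0.05 in this comparison (edgeR). How many of all genes were without overlap was not counted. For Htr4 with Drd1, control RE mice had 10.9, 20.8 and 38.4 CPM and stress RE mice 7.45, 9.59 and 18.2 CPM, which overlapped. Without control RE mouse 87 the log2 change of Htr4 was −0.20 with Drd2 and −0.54 with Drd1, and that of Htr1f with Drd1 stayed between 0.38 and 0.68 with each mouse left out. The 2 NP mice had 145 and 223 CPM of Htr4 with Drd2, within the range of each RE group in turn, and 167 and 195 CPM of Htr1f, near the stress RE mice.

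Of the remaining differences at an unadjusted p, Htr7 in CA2 pyramidal nuclei was 97.1 CPM ± 14.8 in stress RE and 78 CPM ± 3.26 in control RE mice (log2 change 0.32, SE 0.14, adjusted p = 1 by edgeR). Htr2a in Sst interneurons was 22.8 CPM ± 6.52 in control RE and 45.8 CPM ± 19.9 in NP mice (−0.90, SE 0.34, adjusted p = 0.923 by edgeR). Htr7 in astrocytes was 2.61 CPM ± 1.37 in stress RE and 6.1 CPM ± 1.99 in NP mice (−1.22, SE 0.42, adjusted p = 1 by edgeR). Others were Htr1f in CA2 and Htr2a and Htr7 in oligodendrocytes.

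Over all nuclei of a mouse, where fewer cells of a type and less RNA per cell cannot be told apart, no receptor was called either. Called genes were 0.00472% of all genes for control RE minus NP, 0% for stress RE minus control RE and 0% for stress RE minus NP, and those at an unadjusted p under 0.05 were 3.98%, 0.855% and 4.03%. Htr1f alone fell under an unadjusted 0.05, in stress RE against NP mice (log2 change 0.48, SE 0.18, adjusted p = 0.999 by edgeR). Without thalamic, habenular, choroid plexus, ependymal, vascular and unnamed nuclei this was 0.35 (SE 0.18, adjusted p = 1 by edgeR). DESeq2 was not run on these sums.

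Whether the group difference depended on class was tested as the ratio of the highest to the second class in each mouse for 8 receptors, against NP or between the RE groups but not for stress RE minus NP. Htr2c and Htr4 were not tested, since only 2 control RE mice had enough habenular nuclei. None of 13 exact permutation tests had an adjusted p under 0.05, but the smallest exact p that the design allows is 0.00952 to 0.1 for a single test, or 0.124 and more after multiplication by 13. No single test could therefore pass alone, and the values are given as a description. The smallest p in these exact permutation tests were for Htr1a in CA1 pyramidal nuclei against neuroblasts, with a difference in log2 ratio of −3.02 for control RE minus NP (exact p = 0.019) and 1.82 for stress RE minus control RE (p = 0.0159), both 0.124 after adjustment. The neuroblasts held 0 Htr1a UMIs in 5 of 6 NP mice and 1 to 4 in each control RE mouse.

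The rest of the serotonin pathway was examined in 8 lists of genes, and none of their genes was called in any class or comparison (edgeR). Of the 4 other receptor genes, Htr2b had 11.7 CPM over all nuclei, Htr5a 1.95, Htr5b 1.07 and Htr3b 0.0229 (22 UMIs). Tph2, the neuronal enzyme of serotonin synthesis, and Slc6a4, the serotonin transporter, were near 0 at 0.616 and 0.0645 CPM. At an unadjusted p under 0.05, lower results made up 1.98%, 1.38% and 2.28% of all gene tests in the comparisons control RE minus NP, stress RE minus control RE and stress RE minus NP. In that order, the Gq list of 7 genes had 7 of 155, 2 of 169 and 10 of 167 tests lower, and 4, 2 and 2 higher. The list of Adar, Adarb1 and Adarb2, a family that edits RNA although Adarb2 has no known editing activity and was also a marker used to name Vip or Cck interneurons, had 3 of 66, 5 of 72 and 11 of 70 lower, and 0, 1 and 0 higher. The Gi/o list had 4 of 157, 6 of 169 and 2 of 167 lower, and 2, 2 and 1 higher. The Gs list had 4 of 205, 5 of 223 and 8 of 219 lower, and 2, 3 and 0 higher. The list of receptor partners had 6 of 189, 1 of 203 and 8 of 201 lower, and 1, 2 and 2 higher. That of Htr1a regulators had 3 of 49, 0 of 53 and 1 of 52 lower, and 0, 2 and 1 higher. For serotonin synthesis, transport and breakdown, 1 of 34, 0 of 36 and 0 of 38 were lower, and 0, 2 and 0 higher. The other receptors had none. Tests of a gene in several classes share mice and are not independent.

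By the smallest unadjusted p in each list, Plcb4, a phospholipase C, in Drd2 striatal-type nuclei had 7.97 CPM ± 3.3 in 3 stress RE and 35.2 CPM ± 6.48 in 3 control RE mice (log2 change −2.38, SE 0.68, adjusted p = 0.413 by edgeR). Adarb2 in Drd1 striatal-type nuclei had 329 CPM ± 101 and 541 CPM ± 107 in the same groups (−0.77, SE 0.21, adjusted p = 0.253 by edgeR). Adcy5, an adenylyl cyclase, in Sst interneurons was −0.76 (SE 0.22) for control RE minus NP (adjusted p = 0.859 by edgeR). Cc2d1a, a repressor of Htr1a, in Vip or Cck interneurons had 10.6 CPM ± 2.3 in 4 control RE and 22.6 CPM ± 8.17 in 6 NP mice (adjusted p = 0.977 by edgeR). The smallest for the other lists were Gnai2 in oligodendrocyte precursors (−0.58, adjusted p = 1), Dlg4 in microglia (−0.55, adjusted p = 0.888), Ddc in endothelial nuclei (0.96, adjusted p = 1) and Htr2b in oligodendrocyte precursors (0.63, adjusted p = 1), by edgeR.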

How the data were processed

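snRNA-seq (10x Genomics 3′ chemistry) covered dHF micropunches of 15 mice, and groups and batches came from the labels. The authors deposited UMI counts per barcode, made with Cell Ranger (7.1.0 in the submitters' processing notes, 7.0.0 in the file headers) on mm10 (the notes also list GRCm39). These are whole numbers, neither normalized nor corrected for free RNA, with doublets still in them.

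Kept barcodes had at least 200 genes and at most 5% mitochondrial UMIs, and the highest Scrublet scores (scanpy 1.11.5) were removed at 0.8% of barcodes per 1000 barcodes. Clustering used custom numpy code (2000 variable genes, 14 serotonin receptor genes left out, 30 components, 15 neighbours) and the Leiden method of igraph 0.11.9 on shared neighbours (resolution 1). Clusters of at least 100 nuclei (sub-clusters, 50) were named from at least 3 markers with at least 5 CPM and 2-fold the median of clusters and a mean log2 fold of at least 2.5. A cluster that lacked any marker of its list also had to have more genes of that list than of another among its 10 leading genes, and a sub-cluster had to lead the next list by 0.5. These thresholds were set after clusters were seen, and class levels depend on them. The members and gene lists were chosen with earlier results of these data known. Gene positions are from GENCODE (GRCm38).

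Counts were summed per mouse and class (at least 10 nuclei) and tested with edgeR 4.0.16 in R 4.3.3 (filterByExpr, TMM, quasi-likelihood, 3 groups in 1 fit), with DESeq2 1.42.0 as an alternative; both were tested on simulated data. The named genes are all receptors in every class, the gene of each pathway list with the smallest p where none was called, and the nearest genes in profile (mean log2(CPM + 1) by class, genes with at least 5 CPM in a class). Other software was scipy 1.17.1, numpy 2.4.6, pandas 2.3.3, matplotlib 3.10.9 and scikit-learn 1.9.0 under Python 3.11.15. Shares of nuclei were compared at 1000 UMIs a nucleus. Alternatives were other scaling, no filter, batch as a term, at least 20 nuclei, more doublets removed, log2(CPM + 1) and each mouse left out.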

Additional observations from a re-analysis of the deposited data

Results flagged for a closer look

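Htr2a in mossy cells was 112 CPM in control RE mouse 72, far from the other 3 control RE mice, which had 71.6 to 72.1 CPM. The gap was 0.988 of the range of the group by Dixon's rule. The mouse had 41 mossy cells, the most of any mouse. Of 20 groups tested this was the only one, and chance alone gives about 1 such result in 20 groups.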

How the results depend on the processing

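Mice could not be paired between groups because the groups share no replicate number. The count of receptors called was 0 in each comparison and stayed 0 under DESeq2, other scaling, no scaling, batch as a term, at least 20 nuclei a mouse and more doublets removed. Over all genes, DESeq2 called 1 gene test for control RE minus NP, 33 for stress RE minus control RE and 3 for stress RE minus NP. With no filter on low counts it was 1 in each comparison, namely Htr2a in Drd1 striatal-type nuclei for stress RE minus control RE (adjusted p = 0.0179) and Htr2c in Sst interneurons for control RE minus NP (1.49e-07) and stress RE minus NP (0.0306), by edgeR. In that setting all genes gave 166 calls of 503364 gene tests for control RE minus NP, 449 of 544853 for stress RE minus control RE and 233 of 541516 for stress RE minus NP. The cause was not tested. With each mouse left out in turn, the count ranged from 0 to 1 for stress RE minus NP and was 0 otherwise. The 1 came without NP mouse 37 (Htr2c in Cajal-Retzius cells, adjusted p = 0.0474 by edgeR), where 8 of 214271 gene tests were called. Over these settings Htr2c in dentate granule nuclei (stress RE minus NP) stayed between −1.44 and −1.10 on the log2 scale, and Htr2a in Drd1 striatal-type nuclei (stress RE minus control RE) between −1.11 and −1.03, in settings that kept all 6 compared mice. Leaving out those mice in the striatal-type classes, an alternative chosen after seeing the data, changed the sign of Htr2a with Drd2 (−1.22 to 0.22 without control RE mouse 87) and called no receptor. For control RE minus NP, Htr2c in astrocytes was −0.53 at its weakest, with batch as a term, in dentate granule nuclei −0.84 and in Lamp5 interneurons −0.59, with 2 times the share of doublets removed.

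Of the 30 tests between broad classes, 26 passed, 24 to 27 with each mouse left out, 25 within batches 2 and 3 and 26 on the log2(CPM + 1) scale. Each receptor kept its highest class except Htr1b, Htr1d and Htr6 among striatal-type or mossy nuclei and Htr7, which was highest in Lamp5 interneurons by thinned share. Depth limits Htr1b, Htr1d, Htr3a and Htr6, with 17, 10, 24 and 7 UMIs in the highest class of a median mouse.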

Other observations

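Nuclei left unnamed, among them clusters with most markers of a list whose leading genes did not favour that list, held 20.3% of the Htr2c UMIs and 21.4% of the Htr1f UMIs. Cluster 22 (1031 nuclei), led by Ebf2, Ebf1, Ebf3 and Tfap2d, had 1230 CPM of Htr2c over its pooled nuclei, and cluster 13 (3078 nuclei), led by 6330411D24Rik, Ebf3 and Tfap2d, had 498 CPM of Htr2c and 14.5 CPM of Htr1b. Cluster 25 (934 nuclei), led by Gm10635, Hs3st2 and Ccn2, had 557 CPM of Htr1f and 18.9 CPM of Htr2c. Cluster 35 (290 nuclei), with Ttn and Gata3 among its leading genes, had 143 CPM of Htr2a, above the 81.5 CPM of mossy cells. Cluster 38 (269 nuclei), led by Cpa6 and Ano2, had 30.5 CPM of Htr1b. Cluster 47, with 75 nuclei too small to be named, had 175 CPM of Htr7 (219 UMIs), above the 106 CPM of thalamic excitatory nuclei. These clusters were not tested between groups.

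Among the other receptor genes, Htr5b was highest in habenular nuclei, at 31.3 CPM ± 12.9 (SD, n = 12), and reached 4.41 CPM ± 1.34 (n = 15) in CA1 pyramidal nuclei, the next class with neurons. Htr5a was low in every class and highest in Lamp5 interneurons, at 6.17 CPM ± 3.44 (n = 15).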
